A study of Mus musculus with 8 samples.

Results

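A set of 41 genes that mark macrophages was followed through cultures of mouse embryonic fibroblasts (MEFs) undergoing reprogramming. The genes were taken from a list of mouse symbols and looked up by Ensembl identifier among the 55487 genes of the count table, and all 41 were found. C-type lectins and osteoclast-like genes were not part of the list. Of the 41, 40 had enough reads to be tested, among 19392 tested genes in all, and the chemokine receptor gene Ccr2 was the exception.

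Polyadenylated RNA was sequenced in bulk from 8 libraries of C57BL/6 MEFs heterozygous for Rosa26-rtTA and for Tet-O-OSKM, a transgene that expresses Oct4, Sox2, Klf4 and Myc when doxycycline is given. Cells of 2 embryos, MEF 61.3 and MEF 61.5, each received doxycycline for 72 h, at 1 µg/mL by the sample labels and at 1 mg/mL by the design text, under 4 treatments: 2 µM vitamin B12, 2 µM B12 together with PF-9366 at 2 µM, which inhibits MAT2A (B12 + MAT2Ai), NSC636819 at 10 µM, which inhibits KDM4A and KDM4B (NSC), or S-adenosylmethionine at 100 µM (SAM). Every library thus came from doxycycline-treated cells, each treatment had n = 2 embryos, and no library with doxycycline alone was analysed here. MEF preparations are made from minced embryos and are not sorted, so they can carry cells other than fibroblasts.

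Macrophages are phagocytes that settle in the embryo early in development and clear dying cells. Their identity depends on the transcription factor PU.1, the product of Spi1, and on signals of the growth factors CSF1 and IL-34 through the receptor CSF1R. They are recognised by lysozyme, by Fc and complement receptors, by the C1q complement proteins, by scavenger receptors and by the enzymes of a large lysosomal compartment. Tissue macrophages are commonly found among primary fibroblast cultures.

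Libraries held 27498180 to 38565685 counted reads, and mitochondrial genes took 1.23% to 1.69% of them, except 2.33% in the NSC library of MEF 61.3. Fibroblast markers dominated: 12 of them, collagen genes among them, summed to 77660 to 111500 CPM, the unit used here for read counts scaled to a common library size. Markers of other blood cells were scarce. Summed CPM were 1.09 to 1.96 for 8 T cell genes, 0.305 to 0.517 for 6 B cell genes, 0.263 to 0.774 for 9 neutrophil genes, 1.18 to 2.28 for 8 mast cell genes and 0.143 to 0.561 for 7 erythroid genes. NK cell markers (5 genes) reached at most 0.0278 CPM in a library. Cd3e, Cd3d, Cd3g and Ncr1, defining genes of T and NK cells, had 0 reads in all 8 libraries, which allows up to 0.109 CPM in the smallest. Dendritic cell genes summed to 4.04 to 6.04 CPM and their growth factor receptor gene Flt3 had 2 reads in all, while megakaryocyte and platelet genes summed to 9.04 to 11.7 CPM. Monocyte genes summed to 65.5 to 135.8 CPM, Plac8 foremost, with Chil3 at 0 reads. Genes also used by other cells gave larger sums: 368 to 470.2 CPM for 5 progenitor genes, mostly Cd34, 67.6 to 109.8 CPM for 6 endothelial genes, mostly Tek, and 156 to 344.3 CPM for 6 osteoclast-like genes, mostly Ctsk and Mmp9.

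The macrophage genes, in contrast, were present in every library. Their summed level in MEF 61.3 was 6896 CPM under B12, 6098 under B12 + MAT2Ai, 5421 under NSC and 2568 under SAM. In MEF 61.5 the sums were 3846, 2953, 2732 and 850.6 CPM in the same order. Each treatment was thus higher in MEF 61.3, B12 was highest and SAM lowest in both MEFs, and the SAM library of MEF 61.3 was below the B12, B12 + MAT2Ai and NSC libraries of MEF 61.5. Lyz2, the gene of lysozyme 2, contributed most to the sum in every library. Without both lysozyme genes the order within each MEF was the same. The sums were then 3581, 3144, 2759 and 1589 CPM in MEF 61.3 and 1846, 1417, 1240 and 512.5 CPM in MEF 61.5. Of the MEF 61.5 libraries, only that of B12 was then above the SAM library of MEF 61.3. Bulk counts cannot tell fewer macrophages from less macrophage RNA per cell, and this holds for every result here.

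**Figure D1:**
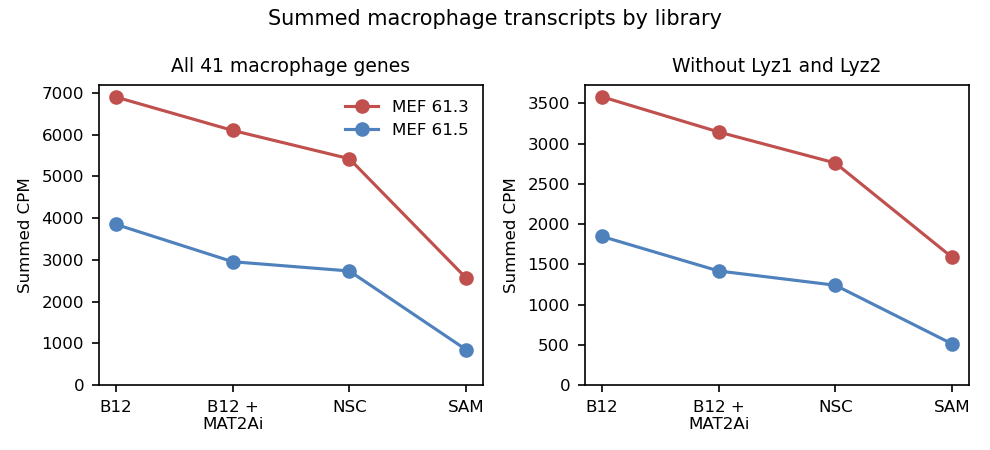
Summed level of the 41 macrophage genes in CPM (linear axis from 0) in each of the 8 libraries, for all genes (left) and without Lyz1 and Lyz2 (right). Each point is a library and lines join libraries of the same MEF. The sum falls from 6896 to 2568 CPM in MEF 61.3 and from 3846 to 850.6 CPM in MEF 61.5 between B12 and SAM.

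Levels of different genes were compared per exon length, as RPKM (CPM per kilobase of exon), averaged over the 8 libraries. Lyz2, the macrophage lysozyme, was by far the highest at 1362 RPKM. Its neighbour Lyz1 (92.6 RPKM), the C1q genes C1qb (71.8) and C1qa (67.4), the lysosomal glycoprotein gene Cd68 (60.3) and the lysosomal protease gene Ctss (48.1) followed. In all, 24 members had at least 10 RPKM and 12 had 1 to 10 RPKM. The 5 members below 1 RPKM were Cd86 (0.944), Aif1 (0.931), Cx3cr1 (0.234), Cd163 (0.0491) and Ccr2 (0.0191). Among genes that define macrophages by surface or lineage, Adgre1 (F4/80) was at 45.6, Csf1r at 15.99 and Spi1 at 6.91 RPKM, whereas the monocyte receptor gene Ccr2 and the haemoglobin scavenger gene Cd163 were close to absent.

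Across the 8 libraries the members moved in parallel. The SAM library of MEF 61.5 was the lowest for 39 of 41 members, with Cx3cr1 and Cd163 as exceptions, and the B12 library of MEF 61.3 was the highest for 35. The full order of B12 over B12 + MAT2Ai over NSC over SAM was seen in 31 members in MEF 61.3 and in 33 in MEF 61.5. As a description over these 8 libraries, the correlation of a member with the mean of the other tested members was 0.944 (Siglec1) or more for all but Aif1 (0.892), Ccr2 (0.847), Cd163 (0.762) and Cx3cr1 (−0.18). The libraries share embryos and treatments, so these values measure likeness only.

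**Figure D2:**
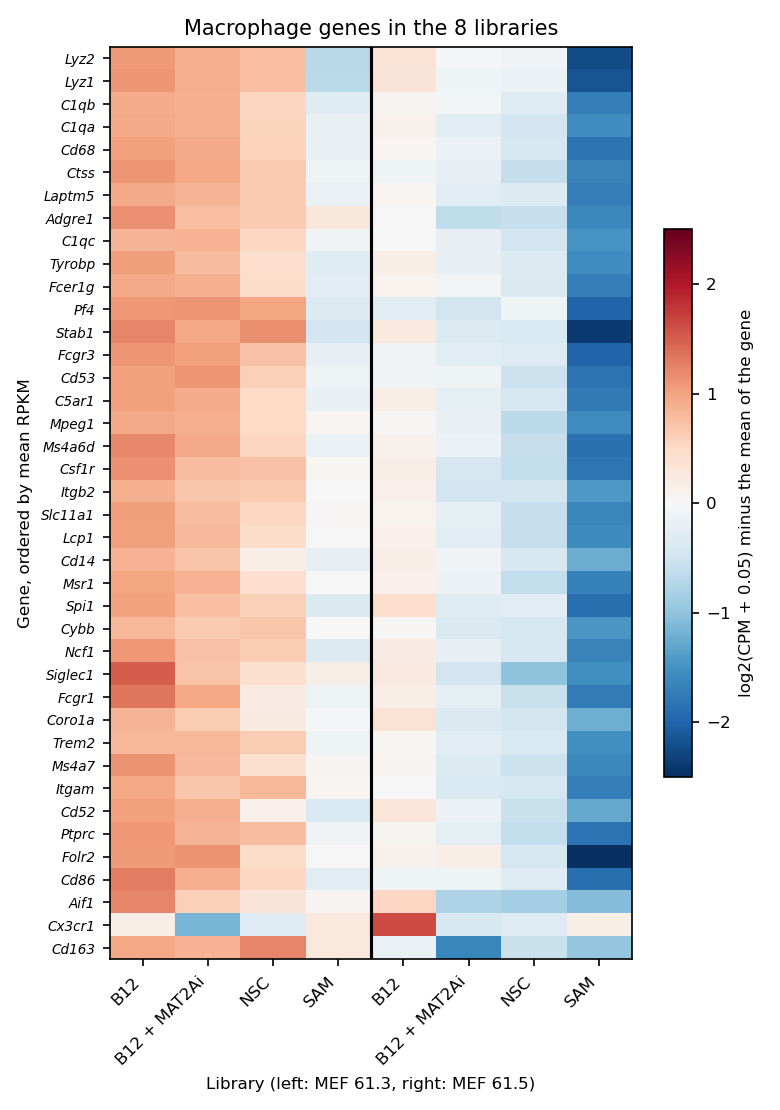
Level of the 40 tested macrophage genes in each library, as log2(CPM + 0.05) minus the mean of the gene over the 8 libraries (red above, blue below the mean). Columns are the 4 treatments in MEF 61.3 (left of the line) and MEF 61.5 (right), and genes are ordered by mean RPKM. The SAM column of MEF 61.5 is the darkest blue for nearly all genes, and Cx3cr1 stands apart with its highest level under B12 in MEF 61.5.

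Of the 41 members, 29 had promoter sequences in a RefSeq table of GRCm38.p6, with 35 start sites in all, each given as 250 bases before and 50 bases after the start. Adgre1, C1qa, Cd14, Cd52, Cd86, Csf1r, Itgb2, Ms4a6d, Msr1, Siglec1, Spi1 and Tyrobp were not among them. The letters GAGGAA, the PU.1-type core of the motif of ETS factors, were searched on both strands, without other forms of that motif. They occurred in 18 of the 35 member promoters (51.4%) and in 28.3% of all 32851 promoters of the table. Some windows of 1 gene overlap, and both Fcgr3 windows hold the same match, which is counted for each, also in the shorter window described next. Within the 60 bases before the start, a window chosen after the matches were seen, they occurred in 31.4% of member promoters and in 6.08% of all. TTGCNNAA, a C/EBP type motif, was in 17.1% against 10.8% and TGANTCA, an AP-1 type motif, in 14.3% against 7.81%, each searched on both strands. TATAAA on the gene strand was in 2.86% against 8.32%. No GAGGAA match overlapped a match to another motif in a member promoter. A match of letters does not show that a factor binds. The 80 bases before the start are shown for 5 members with a match near the start, 5′ to 3′ on the strand of the gene, with GAGGAA or its reverse complement TTCCTC in capitals. The positions on GRCm38 are chr4:136886201-136886280 (minus strand) for C1qb, chr14:31168642-31168721 (minus) for Stab1, chr3:106790150-106790229 (minus) for Cd53, chr17:48346321-48346400 (plus) for Trem2 and chr3:96293970-96294049 (minus) for Fcgr1.
C1qb: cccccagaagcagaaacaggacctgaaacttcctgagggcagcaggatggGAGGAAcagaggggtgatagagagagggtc
Stab1: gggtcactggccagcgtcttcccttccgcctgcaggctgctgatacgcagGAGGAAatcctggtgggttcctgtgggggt
Cd53: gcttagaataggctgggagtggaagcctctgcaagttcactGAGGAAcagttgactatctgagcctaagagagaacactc
Trem2: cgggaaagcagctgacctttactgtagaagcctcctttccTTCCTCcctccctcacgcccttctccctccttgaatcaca
Fcgr1: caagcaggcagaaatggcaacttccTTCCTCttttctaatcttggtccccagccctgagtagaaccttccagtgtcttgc
The match began 30 bases before the start in C1qb and Stab1, 39 in Cd53, 40 in Trem2 and 55 in Fcgr1. All 5 of these genes fell under SAM and were lower in MEF 61.5, as described next. Of the 40 tested members, 38 fell under SAM and 39 were lower in MEF 61.5, so this was common to nearly all. Lyz2 and Lyz1, the most abundant members, had no match in their 300 bases. A link between the letters and these changes was not tested.

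SAM, the methyl donor made from methionine, was compared with B12, the cofactor of the step that makes methionine. Macrophage genes fell under SAM: 38 of the 40 tested members were lower and 0 were higher, where 4.93% of all tested genes were called lower and 2.78% higher. The median log2 fold change was −1.44, a 2.71-fold lower level, against −0.0024 over all tested genes. Both SAM libraries were below both B12 libraries in 34 of the 40 members, against 18.2% of all genes. The exceptions were Adgre1, Itgam, Cx3cr1, Ms4a7, Mpeg1 and Cd163, in which at least 1 SAM library was not below both B12 libraries. Calls here and below are at an adjusted p below 0.05 in edgeR. Values after ± beside a log2 fold change are standard errors, derived from that fold change and the F statistic of its test.

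The lysozymes, which digest bacterial cell walls, and Stab1 fell most. Lyz2 (chromosome 10, 117277331 to 117282321, GRCm38) was at 3106 CPM in MEF 61.3 and 1879 in MEF 61.5 under B12, 2772 and 1445 under B12 + MAT2Ai, 2498 and 1404 under NSC, and 918.5 and 316.4 under SAM. The SAM libraries were the lowest of their MEF by a wide margin and did not overlap the others. Lyz2 fell 4.42-fold against B12 (log2 fold change −2.15 ± 0.15, adjusted p = 9.72e-06). Lyz1 lies next to it (117287797 to 117292868) and went from 208.8 and 121 CPM under B12 to 60.4 and 21.7 under SAM, with 181.8 and 90.2 under B12 + MAT2Ai and 163.6 and 87.8 under NSC. It fell 4.30-fold (−2.11 ± 0.13, adjusted p = 4.19e-06). Of the 75-base windows, 5.96% of those of Lyz2 and 6.22% of those of Lyz1 also occur in the other gene, so some reads could be divided wrongly. Under B12 in MEF 61.3, Lyz1 had 7283 reads and Lyz2 108363, so a small part of the Lyz2 reads could weigh heavily in Lyz1. The part of this in the Lyz1 values was not tested.

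Stab1 (chromosome 14, 31139013 to 31168641), a scavenger receptor that takes up modified lipoproteins and cell debris, was at 604.1 and 307.2 CPM under B12 in MEF 61.3 and 61.5. It was at 506.5 and 204.9 CPM under B12 + MAT2Ai, 576.4 and 199.7 under NSC, and 184.9 and 49.2 under SAM. The SAM libraries stood below all others, while NSC was close to B12 in MEF 61.3 only. Stab1 had the largest fall of all members against B12, 4.47-fold (−2.16 ± 0.16, adjusted p = 1.25e-05). Stab1, Lyz2 and Lyz1 fell by 0.67 to 0.73 more on the log2 scale than the median member.

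Among the genes of lineage, Spi1 (chromosome 2, 91082390 to 91115756) had a larger estimated fall than Csf1r, and the gap between the 2 genes was not tested. Spi1 was at 32.4 and 21.8 CPM under B12, 27.2 and 13.1 under B12 + MAT2Ai, 24.3 and 13.4 under NSC, and 12.4 and 4.34 under SAM. SAM was below every other library of the same MEF, and both SAM libraries were below all others. Its fall against B12 was 3.43-fold (−1.78 ± 0.16, adjusted p = 3.73e-05). Csf1r (chromosome 18, 61100598 to 61132149) was at 172.9 and 87.9 CPM under B12, 134.1 and 58.8 under B12 + MAT2Ai, 129.9 and 51.4 under NSC, and 81 and 22.6 under SAM. The SAM library of MEF 61.3 lay between the MEF 61.5 libraries of B12 and B12 + MAT2Ai. Csf1r fell 2.81-fold (−1.49 ± 0.15, adjusted p = 6.82e-05).

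The ligands of CSF1R did not follow. Csf1 was between 281.1 and 311 CPM in all 8 libraries and Il34 between 2.32 and 3.40 CPM. Csf1 was at 287.6 and 291.6 CPM under B12 and at 311 and 281.1 CPM under SAM in MEF 61.3 and 61.5. The libraries of both treatments overlapped for Csf1, and Csf2, the gene of another macrophage growth factor, had 0 reads.

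Adhesion and leukocyte surface genes fell as a group, with 6 of 6 members lower and log2 fold changes of −1.50 to −1.20. Adgre1, the F4/80 surface marker, was at 280.1 and 125.7 CPM under B12, 214.5 and 81.8 under B12 + MAT2Ai, 199 and 84.6 under NSC, and 154.9 and 41.3 under SAM. Within each MEF SAM was lowest, but the SAM library of MEF 61.3 was above the B12 library of MEF 61.5. Adgre1 fell 2.30-fold (−1.20 ± 0.14, adjusted p = 0.000188). Ptprc, the leukocyte phosphatase CD45, went from 43.5 and 21.6 CPM under B12 to 19.4 and 5.67 under SAM, with 36.8 and 17.4 under B12 + MAT2Ai and 35.0 and 13.4 under NSC. In MEF 61.5 the SAM library was the lowest of all 8. Itgam and Itgb2 encode the chains of the complement receptor and integrin CD11b/CD18. Itgam was at 32.4 and 16.4 CPM under B12, 27.1 and 12.7 under B12 + MAT2Ai, 29.8 and 12.3 under NSC, and 17.3 and 5.06 under SAM. Reads of Itgam are uncertain, since 65.2% of its 75-base windows are shared with the overlapping gene model Gm49368. Itgb2 fell from 65.6 and 39.0 to 36.0 and 13.1 CPM, among the smallest falls (−1.20 ± 0.13). The tetraspanin gene Cd53 and the small glycoprotein gene Cd52 also fell.

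Receptors that signal through adaptors fell with their adaptors. Tyrobp (DAP12), the adaptor of TREM2, was at 47.0 and 25.3 CPM under B12, 39.1 and 19.6 under B12 + MAT2Ai, 30.7 and 17.8 under NSC, and 18.4 and 7.68 under SAM. Trem2, a lipid-sensing receptor, was at 37.2 and 21.6 CPM under B12, 37.0 and 17.3 under B12 + MAT2Ai, 32.5 and 16.01 under NSC, and 19.0 and 7.15 under SAM. Within each MEF the SAM library was lowest in both genes, and the SAM libraries of MEF 61.3 overlapped the other treatments of MEF 61.5. Tyrobp fell 2.84-fold (−1.51 ± 0.10, adjusted p = 6.96e-06) and Trem2 2.36-fold (−1.24 ± 0.12, adjusted p = 4.9e-05). The immunoglobulin receptor genes Fcgr1 (−1.63 ± 0.15) and Fcgr3 (−1.56 ± 0.13) fell with Fcer1g (−1.46 ± 0.12), the gene of their shared signalling chain. In Fcgr3, 5.42% of windows are shared with Fcgr2b.

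The 3 chains of C1q, the protein that starts the classical complement cascade, are encoded side by side on chromosome 4 (136880129 to 136898803). C1qa was at 118.9 and 66.4 CPM under B12, 114.4 and 50.9 under B12 + MAT2Ai, 90.4 and 44.6 under NSC, and 54.7 and 20.9 under SAM. Within each MEF C1qa followed the order of the summed level, and the SAM library of MEF 61.3 lay between the B12 and B12 + MAT2Ai libraries of MEF 61.5. The log2 fold changes against B12 were −1.38 ± 0.10 for C1qa, −1.48 ± 0.11 for C1qb and −1.19 ± 0.10 for C1qc, whose proteins form one complex. C5ar1, the receptor of the complement fragment C5a, fell by 1.53 ± 0.14 on the log2 scale.

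Lysosome, phagosome and oxidase genes fell in 7 of 7 members. Cd68 was at 132.2 and 67.7 CPM under B12, 126.4 and 58.9 under B12 + MAT2Ai, 98.0 and 47.9 under NSC, and 57.4 and 18.5 under SAM. Ctss, the protease cathepsin S, was at 120.5 and 51.6 CPM under B12, 108.8 and 48.1 under B12 + MAT2Ai, 87.7 and 36.8 under NSC, and 51.5 and 17.5 under SAM. In Ctss the SAM library of MEF 61.3 was within 1 CPM of the B12 library of MEF 61.5. The log2 fold changes were −1.50 ± 0.13 for Cd68 and −1.37 ± 0.09 for Ctss (adjusted p = 5.38e-06). Mpeg1, the pore-forming perforin-2, was at 147 and 77.6 CPM under B12, 142.6 and 67.4 under B12 + MAT2Ai, 107.7 and 48.3 under NSC, and 78.8 and 25.5 under SAM. Cybb, the catalytic subunit of the phagocyte NADPH oxidase, was at 62.8 and 36.1 CPM under B12, 55.9 and 27.6 under B12 + MAT2Ai, 57.3 and 26.4 under NSC, and 35.5 and 12.9 under SAM. Cybb had the smallest fall among the called members, 2.17-fold (−1.12 ± 0.12, adjusted p = 0.000107), while Ncf1, a cytosolic subunit of the same oxidase, fell 3.08-fold (−1.62 ± 0.10, adjusted p = 4.19e-06). Laptm5, a lysosomal membrane protein, and Slc11a1, a phagosomal metal transporter, fell by 1.42 ± 0.12 and 1.32 ± 0.13 on the log2 scale.

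Uptake receptors varied more. Siglec1, the sialic acid lectin CD169, was at 93.3 and 38.7 CPM under B12, 53.5 and 23.3 under B12 + MAT2Ai, 42.7 and 16.1 under NSC, and 36.0 and 11.3 under SAM. It was highest under B12 in each MEF, and in each the NSC level lay nearer to SAM than to B12. It fell 2.92-fold under SAM (−1.55 ± 0.10, adjusted p = 5.38e-06). Folr2, a folate receptor of resident macrophages, was low throughout, at 3.497 and 1.79 CPM under B12, 3.67 and 1.86 under B12 + MAT2Ai, 2.30 and 1.22 under NSC, and 1.66 and 0.250 under SAM. Its fall under SAM was 2.89-fold (−1.53 ± 0.30, adjusted p = 0.0084) with the largest error among the called members. The scavenger receptor gene Msr1 fell by 1.35 ± 0.15. Cd163 had 1 to 19 reads per library, at 0.459 and 0.184 CPM under B12, 0.431 and 0.0351 under B12 + MAT2Ai, 0.560 and 0.127 under NSC, and 0.266 and 0.0835 under SAM. Its difference under SAM did not pass the test (−0.89 ± 0.51, adjusted p = 0.381).

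Cd14, the co-receptor for bacterial lipopolysaccharide, was at 35.9 and 21.9 CPM under B12, 32.2 and 18.3 under B12 + MAT2Ai, 22.1 and 14.9 under NSC, and 17.1 and 8.23 under SAM (−1.22 ± 0.10). Cd86, a ligand that co-stimulates T cells, fell 3.14-fold (−1.65 ± 0.19, adjusted p = 0.000227). The genes of the actin-binding proteins coronin 1A (Coro1a), L-plastin (Lcp1) and IBA1 (Aif1) fell by 1.19 ± 0.14, 1.34 ± 0.13 and 1.38 ± 0.23. The membrane protein genes Ms4a6d and Ms4a7 fell by 1.61 ± 0.12 and 1.30 ± 0.13.

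Chemokine-related members followed different patterns. Pf4, a chemokine of platelets that some tissue macrophages also make, was at 42.2 and 16.5 CPM under B12, 42.5 and 14.3 under B12 + MAT2Ai, 39.3 and 18.5 under NSC, and 15.7 and 4.90 under SAM. The first 3 treatments lay close together and only SAM stood apart, 2.92-fold below B12 (−1.55 ± 0.12, adjusted p = 1.44e-05). Cx3cr1, the fractalkine receptor gene, was at 1.00 and 2.87 CPM under B12, 0.373 and 0.666 under B12 + MAT2Ai, 0.707 and 0.712 under NSC, and 1.09 and 1.00 under SAM. It was the only member not higher in MEF 61.3 in every treatment, with its highest level under B12 in MEF 61.5. No comparison of Cx3cr1 between treatments or MEFs passed the test (SAM against B12, −0.85 ± 0.33, adjusted p = 0.18). Ccr2 had 1 to 8 reads per library, or 0.0278 to 0.229 CPM, and was not tested.

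**Figure D3:**
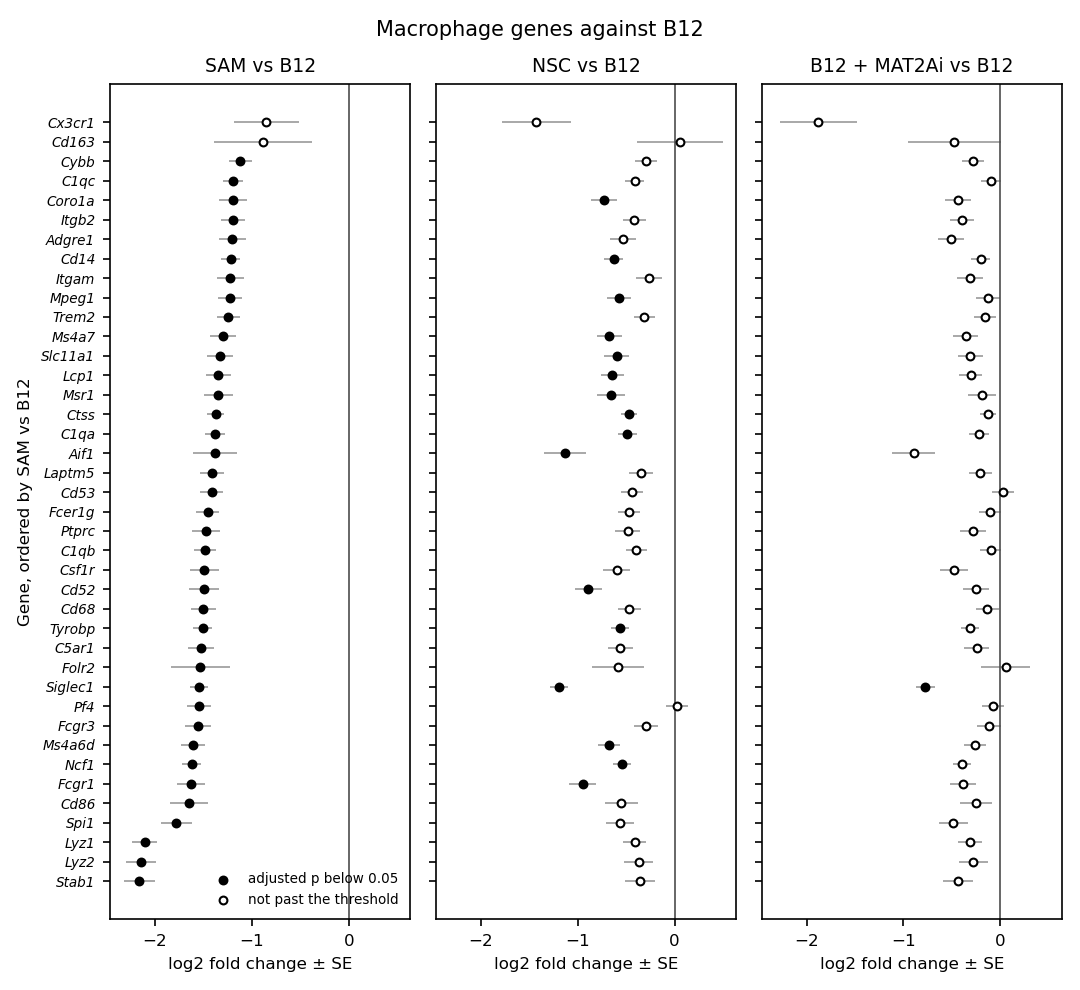
Log2 fold change of the 40 tested macrophage genes against B12 for SAM, NSC and B12 + MAT2Ai, with standard errors as bars. Filled points have an adjusted p below 0.05 over all tested genes and open points do not, and genes are ordered by the SAM comparison. Filled points number 38 for SAM, 16 for NSC and 1 for B12 + MAT2Ai.

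The SAM result stood when any single library was left out, with 38 or 39 members called, and with DESeq2 (38). A model without the MEF term, which does not pair libraries of the same embryo, called 0 members in edgeR, with 13 at an unadjusted p below 0.05.

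Markers of fibroblasts did not move with the macrophage genes under SAM. Of 12 fibroblast genes 0 were called in either direction in edgeR, where 4.93% of all tested genes were called lower and 2.78% higher. Of the 12, 2 had an unadjusted p below 0.05, where 3812 of all 19392 tested genes did. The median log2 fold change of the 12 was 0.03. The fibroblast genes differed between the MEFs, where 9 of 12 were lower in MEF 61.5 with a median of −0.21. Of all tested genes, 10.3% were lower in MEF 61.5.

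The 2 MEFs were also compared with each other. Macrophage genes were lower in MEF 61.5 in 39 of 40 tested members, where 10.3% of all tested genes were called lower and 8.41% higher. The median log2 fold change was −1.14 (2.20-fold lower), against 0.0053 over all tested genes. By levels, 40 of 41 members were higher in MEF 61.3 in all 4 treatments, and the share of all genes that were is not given here. The largest differences were in Cd163 (−1.92 ± 0.37), Stab1 (−1.42 ± 0.11), Adgre1 (−1.41 ± 0.10), Pf4 (−1.39 ± 0.08) and Siglec1 (−1.37 ± 0.07). Cd14 (−0.77 ± 0.07), Coro1a (−0.81 ± 0.10), Cd52 (−0.84 ± 0.11), Spi1 (−0.94 ± 0.11) and Tyrobp (−0.96 ± 0.07) had the smallest among the called members. Their adjusted p ranged from 4.89e-07 for Siglec1 to 0.00381 for Cd163. Each side is 1 embryo, so these p-values cover the spread between libraries and not between embryos. Leaving out any single library called 39 members.

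The fall under SAM was larger in MEF 61.5, which had the lower level under B12. The sum of the members under SAM was 0.372 of the B12 sum in MEF 61.3 and 0.221 in MEF 61.5. The median log2 difference over members was −1.16 in MEF 61.3 and −1.75 in MEF 61.5. The log2 difference was lower in MEF 61.5 than in MEF 61.3 in all 40 tested members, Cx3cr1 included, which did not fall in MEF 61.3. The median gap was −0.64, where the same gap over all tested genes had a median of −0.03. The share of all tested genes with a lower difference in MEF 61.5 is not given here. All members rest on the same libraries and are not separate observations. Folr2 (−1.05 in MEF 61.3 and −2.58 in MEF 61.5) and Cx3cr1 (0.12 and −1.46) differed most, and Stab1 (−1.71 and −2.64), Spi1 (−1.38 and −2.31) and Lyz2 (−1.76 and −2.57) differed more than the median member. With 1 library per treatment and MEF the difference between the MEFs could not be tested. The ratio of MEF 61.3 to MEF 61.5 was therefore widest under SAM, with a median over members of 3.03, compared with 1.86 under B12, 2.11 under B12 + MAT2Ai and 2.03 under NSC.

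**Figure D4:**
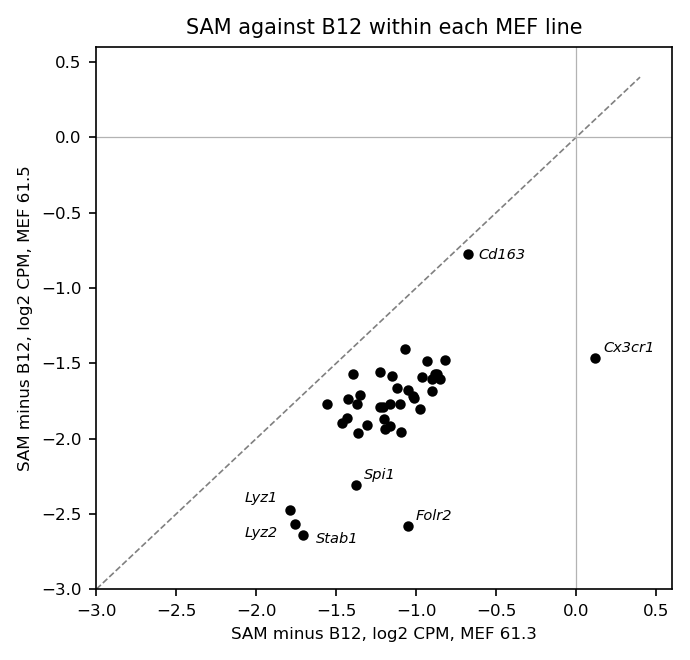
Difference in log2 CPM between SAM and B12 within MEF 61.3 (x axis) and within MEF 61.5 (y axis) for the 40 tested macrophage genes, each a point. The dashed line marks equal differences. All points lie below it, and Stab1 (−1.71 and −2.64) and Lyz2 (−1.76 and −2.57) are among the farthest from 0.

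NSC was compared with B12 to follow inhibition of the histone demethylases KDM4A and KDM4B. The NSC libraries were not given B12, so adding the inhibitor and leaving out B12 cannot be told apart, and the same holds for SAM against B12. Macrophage genes were moderately lower: 16 of 40 members were called lower and 0 higher, where 1.62% of all tested genes were lower and 0.284% higher. The median was −0.54 (1.45-fold lower), against −0.0017 over all tested genes. Siglec1 fell most, 2.29-fold (−1.19 ± 0.10, adjusted p = 0.000216), with every NSC value given above below its B12 partner. The actin-binding members fell in 3 of 3 genes, Aif1 by 1.13 ± 0.22 (adjusted p = 0.0236), Coro1a by 0.73 ± 0.13 and Lcp1 by 0.64 ± 0.12. The high-affinity Fc receptor gene Fcgr1 (−0.95 ± 0.14, adjusted p = 0.00583) and Cd52 (−0.89 ± 0.14, adjusted p = 0.00867) were also among the 5 largest falls.

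The smallest called falls under NSC were in Ctss (−0.47 ± 0.08, adjusted p = 0.0142), C1qa (−0.49 ± 0.10, 0.0333), Ncf1 (−0.54 ± 0.09, 0.0107), Tyrobp (−0.56 ± 0.09, 0.0101) and Mpeg1 (−0.57 ± 0.12, 0.0416). Ms4a6d, Ms4a7, Msr1, Cd14 and Slc11a1 made up the rest of the called members. The 5 members with the largest falls under SAM did not pass the test under NSC: Stab1 (−0.36 ± 0.15, adjusted p = 0.37), Lyz2 (−0.37 ± 0.15, 0.322), Lyz1 (−0.41 ± 0.12, 0.145), Spi1 (−0.56 ± 0.15, 0.0978) and Cd86 (−0.55 ± 0.17, 0.172). Fcgr1, Ncf1 and Ms4a6d, next in that order, were called under both. Pf4 was at 0.03 ± 0.11 under NSC (adjusted p = 0.952). The largest estimate was that of the low Cx3cr1 (−1.43 ± 0.36), which did not pass the test (adjusted p = 0.0813). Both comparisons share the B12 libraries. In the direct comparison of NSC with SAM, 34 of 40 members were higher under NSC and 0 lower, where 5.1% of all tested genes were called higher and 4.42% lower. The median was 0.93, against 0.011 over all tested genes, and the largest differences were in Stab1 (1.80 ± 0.16), Lyz2 (1.77 ± 0.15), Lyz1 (1.70 ± 0.13), Pf4 (1.57 ± 0.12) and Fcgr3 (1.26 ± 0.13). Siglec1, Coro1a, Aif1, Folr2, Cx3cr1 and Cd163 did not pass the test there.

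The number of members called under NSC depended on single libraries. It was 1 without the NSC library of MEF 61.3 and 7 without that of MEF 61.5, but 33 without the B12 library of MEF 61.3 and 30 and 29 without the SAM libraries of MEF 61.3 and 61.5. A model without the MEF term called 0 members in edgeR (1 at an unadjusted p below 0.05) for NSC against B12, and 0 (2) for NSC against SAM. Shares of all tested genes called in these refits are not given here. The counts thus do not show whether the dependence was particular to the members. The NSC library of MEF 61.3 is the one with the higher mitochondrial share, 2.33%, and the part of that in these values was not tested.

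B12 + MAT2Ai was compared with B12 to ask what changes when SAM production from methionine is inhibited. Siglec1 was the 1 member called, 1.71-fold lower (−0.77 ± 0.09, adjusted p = 0.0117), where 0.0155% of all tested genes were called lower and 0.0722% higher. The median over members was −0.28, against −3.2e-05 over all tested genes. Of the 40 members, 38 had an estimate below 0 and 19 an unadjusted p below 0.05. Of all 19392 tested genes, 9699 had an estimate below 0 and 1575 an unadjusted p below 0.05. Leaving out the MEF 61.5 library of B12 moved the median to −0.15, and leaving out its MEF 61.3 library moved it to −0.41. Estimates for lineage genes were −0.48 ± 0.14 for Csf1r and −0.48 ± 0.15 for Spi1 (adjusted p = 0.439 and 0.457), and those for Cd53 and Folr2 were 0.02 ± 0.11 and 0.06 ± 0.25. Cx3cr1 had the largest estimate (−1.88 ± 0.39) without passing the test (adjusted p = 0.198). Levels of 37 members were lower in both MEFs. Siglec1 lost its call without either B12 + MAT2Ai library, and the count rose to 11 members without the B12 library of MEF 61.3 and to 2 without either SAM library. Without the MEF term 0 members were called (1 at an unadjusted p below 0.05). Shares of all tested genes called in these refits are not given here.

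SAM was also below B12 + MAT2Ai: 37 of 40 members were lower and 0 higher, where 4.81% of all tested genes were called lower and 3.36% higher. The median was −1.19, against −0.0025 over all tested genes, and the largest falls were in Lyz2 (−1.87 ± 0.15), Lyz1 (−1.79 ± 0.13), Stab1 (−1.73 ± 0.16), Folr2 (−1.59 ± 0.30) and Pf4 (−1.47 ± 0.12). In NSC against B12 + MAT2Ai 4 members were lower and 0 higher, where 1.83% of all tested genes were called lower and 1.76% higher. The median was −0.28, against −0.0066 over all tested genes. These 4 were Cd52 (−0.64 ± 0.15, adjusted p = 0.0427), Cd14 (−0.43 ± 0.10, 0.0412), Siglec1 (−0.42 ± 0.10, 0.0427) and Ctss (−0.35 ± 0.08, 0.0486). The number was 16 without either SAM library, 14 without either B12 library, 2 without the NSC library of MEF 61.5 and 0 without the NSC library of MEF 61.3 or either B12 + MAT2Ai library. Without the MEF term 0 members were called in both comparisons, with 4 and 0 at an unadjusted p below 0.05. For these refits too, shares of all tested genes called are not given here.

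Other genes of the myeloid programme gave the setting for the members. In a list of 30 genes of myeloid signalling and effector functions, 28 were lower under SAM than under B12 and 0 higher, with a median of −1.32. Of all tested genes, 4.93% were called lower and 2.78% higher in that comparison. The largest falls were in the Rac activator gene Dock2 (−1.89 ± 0.16), the inhibitory Fc receptor gene Fcgr2b (−1.85 ± 0.12) and the kinase gene Btk (−1.72 ± 0.18). Under NSC, 16 of the 30 were lower and 0 higher, where 1.62% of all tested genes were lower and 0.284% higher. Among the lower genes were the endosomal RNA sensor gene Tlr7 (−0.90 ± 0.15) and the oxidase subunit gene Ncf4 (−0.77 ± 0.12). Under B12 + MAT2Ai 0 of 30 were called in edgeR, with 17 at an unadjusted p below 0.05. Of all tested genes, 0.0155% were called lower and 0.0722% higher there, and 1575 of 19392 had an unadjusted p below 0.05. In MEF 61.5 against MEF 61.3, over all treatments, 28 of the 30 were lower, where 10.3% of all tested genes were lower and 8.41% higher.

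In a list of 25 macrophage growth factors, their receptors and transcription factors, 24 were tested and 11 were lower under SAM, with 0 higher and a median of −0.51, where 4.93% of all tested genes were lower. The cytokine receptor chain gene Csf2rb (−1.74 ± 0.14), the lymphoid and myeloid regulator gene Ikzf1 (−1.62 ± 0.17) and Tfec (−1.59 ± 0.16), a factor of the MITF family, fell most. Under NSC 1 gene, Irf5, was lower (−0.69 ± 0.13) and 1, Csf2rb2, was higher (0.68 ± 0.14), where 1.62% of all tested genes were lower and 0.284% higher. In MEF 61.5, 14 of 24 were lower and 0 higher, where 10.3% of all tested genes were lower and 8.41% higher. Csf3r (−1.60 ± 0.23) and Csf2rb (−1.35 ± 0.09) led the lower genes.

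A list of lysosomal genes combined broadly expressed enzymes with genes of macrophages and osteoclasts such as Gpnmb and Atp6v0d2. Of its 21 genes 12 were lower under SAM and 0 higher, where 4.93% of all tested genes were lower and 2.78% higher. The median was −0.28, and Gpnmb (−1.40 ± 0.11), Ctsd (−0.80 ± 0.06) and Lipa (−0.66 ± 0.06) fell most. Under NSC 0 were lower and 1, Atp6v0d2, was higher (0.79 ± 0.17), where 1.62% of all tested genes were lower and 0.284% higher. In MEF 61.5, 18 were lower and 1, Tfeb, was higher (0.25 ± 0.06), with a median of −0.41. Between the MEFs 10.3% of all tested genes were lower in MEF 61.5 and 8.41% higher.

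By profile over the 8 libraries, the 10 genes outside the list most like the mean of the tested members, among 10513 genes with a mean of at least 10 CPM, had correlations of 0.996 to 0.999. They included Inpp5d (0.999), Fermt3 (0.998), Trpv2 (0.998), Rassf4, Plcg2, C3ar1, Rnf128, Dock2 and Nckap1l. Inpp5d encodes an inositol phosphatase of blood cells, Fermt3 an activator of leukocyte integrins and C3ar1 a complement receptor. C3ar1 ranged from 20.9 to 133.1 CPM. In all, 250 genes outside the list had a correlation above 0.95. Of the 34 members with a mean of at least 10 CPM, 33 did. The mean profile used here includes each member itself, unlike the correlations between members given above. With 8 libraries of 2 embryos and 4 treatments, such values describe these libraries only.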

How the data were processed

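The deposited table holds raw read counts per gene. Per the study's methods, alignment was done by the authors in STAR on the GRCm38 (mm10) build. The sample records give the STAR version as 2.5.2b. By the study's methods, featureCounts assigned the reads to an Ensembl annotation with a reverse-stranded setting. Technical replicates were summed. Gene symbols, positions and exon lengths came from GENCODE M21, which matched 55227 of 55487 identifiers.

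The main test was edgeR's quasi-likelihood test (edgeR 4.0.16, limma 3.58.1, R 4.3.3) with TMM scaling, with treatment and MEF as terms over all 8 libraries. Genes passed filterByExpr with a minimum count of 10, and p-values were adjusted by Benjamini-Hochberg over 19392 genes at 0.05. The residual degrees of freedom were 3, and the median prior degrees of freedom that edgeR added to them were 7.92. MEF is a true pairing, since libraries of 1 number come from the same embryo. Deviations of same-embryo libraries from their treatment means correlated at 0.424 to 0.559 over the 6 pairs of treatments. CPM were scaled by TMM library sizes, and log2 CPM within a MEF used a prior count of 2. Each level rests on 1 library, so precision is limited by 2 embryos per treatment. Sequencing reads are not independent molecules, and the limit for 0 reads (3 counts) covers counting error only. The script was tested on simulated counts. No pair of libraries agreed within sampling noise.

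The members, the supporting lists and the tests were chosen with earlier results of these data known. Named were all members, with each library's value for 22 core members, the 5 largest and 5 smallest called changes per comparison, up to 3 called genes per supporting list and the 10 most similar genes. Genes behind counts of 5 or fewer, exceptions among members, genes of other cell types and the promoters shown were named after their values were seen. Some genes that these rules select are not reported here. Alternatives were DESeq2 1.42.0, its size factors in edgeR, other count filters, no MEF term, only the 4 libraries compared and each library left out in turn. Motifs were searched in a RefSeq promoter table of GRCm38.p6.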

Additional observations from a re-analysis of the deposited data

Results flagged for a closer look

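In 14 of 240 pairs of a tested member and a treatment comparison, the log2 difference had opposite signs in the 2 MEFs, and in 5 of these both differences were larger than 0.1. With 1 library per treatment and MEF the differences between the MEFs were not tested. Cx3cr1 under SAM against B12 was 0.12 in MEF 61.3 and −1.46 in MEF 61.5, a difference of −1.58, with 35 and 109 reads under B12 and 37 and 36 under SAM. Cd163, with 1 to 19 reads per library, differed between the MEFs by −0.65 under NSC against B12 (0.26 and −0.39) and by 1.20 under SAM against B12 + MAT2Ai (−0.59 and 0.61). Pf4 differed by 0.26 under NSC against B12 (−0.10 and 0.16) and by 0.47 under NSC against B12 + MAT2Ai (−0.11 and 0.36).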

How the results depend on the processing

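None of the medians changed sign under the alternatives, nor did the changes recomputed for the members with the largest and smallest called changes in each comparison and for Cx3cr1 under SAM and between the MEFs. Other members were not recomputed. Without the replicate block, that is without pairing libraries by MEF, edgeR called 0 members in each of the 6 treatment comparisons, with 13 (SAM against B12), 1 (NSC against B12), 1 (B12 + MAT2Ai against B12), 4 (SAM against B12 + MAT2Ai), 0 (NSC against B12 + MAT2Ai) and 2 (NSC against SAM) at an unadjusted p below 0.05, while medians stayed within the spread between libraries. NSC against B12 gave 36 calls without a count filter (35105 genes tested) and 29 with only the 4 libraries compared. B12 + MAT2Ai against B12 gave 19 and 18, and NSC against B12 + MAT2Ai 19 and 20, or 2 with a filter at 1 CPM. The cause was not tested. Shares of all tested genes under these alternatives, or with 1 library left out, are not given here. Such counts therefore do not show whether a change was particular to the members.

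Leaving out 1 library (a lone library was assumed to vary like the others) gave 38 to 39 calls for SAM against B12, 1 to 33 for NSC against B12 (30 and 29 without the SAM libraries of MEF 61.3 and 61.5), 0 to 11 for B12 + MAT2Ai against B12, 33 to 38 for SAM against B12 + MAT2Ai, 0 to 16 for NSC against B12 + MAT2Ai, 28 to 37 for NSC against SAM and 39 between the MEFs. Where the count was 0, members with an unadjusted p below 0.05 numbered 9 and 11 for B12 + MAT2Ai against B12 without either B12 + MAT2Ai library, and 14, 11 and 7 for NSC against B12 + MAT2Ai without either B12 + MAT2Ai library or the NSC library of MEF 61.3. Medians ranged from −0.41 to −0.15 for B12 + MAT2Ai against B12, from −0.66 to −0.38 for NSC against B12 (−0.44 without the NSC library of MEF 61.3) and from −0.35 to −0.19 for NSC against B12 + MAT2Ai. DESeq2 called 38 members for SAM against B12, 18 for NSC against B12, 1 for B12 + MAT2Ai against B12 and 6 for NSC against B12 + MAT2Ai.

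Without the lysozymes the sums in MEF 61.3 were 3581 CPM (B12), 3144 (B12 + MAT2Ai) and 2759 (NSC). Of 635 single-member values under alternatives, 83 lost and 3 gained a call. Members under 1 CPM are limited by depth, and 2 embryos per treatment limit the rest.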

Other observations

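Genes of neighbouring blood lineages did not all move with the macrophage genes. Of the progenitor genes Myb, a regulator of definitive haematopoiesis, rose under SAM against B12 from a low level (2.15 ± 0.41 on the log2 scale, adjusted p = 0.00658 in edgeR). Of the monocyte genes Ly6c2 rose under SAM (0.54 ± 0.10, adjusted p = 0.00537), and Plac8 fell under NSC (−1.03 ± 0.15, adjusted p = 0.00616). Nr4a1, an immediate early gene that is also needed by patrolling monocytes, was higher in MEF 61.5 (2.06 ± 0.13, adjusted p = 2.31e-06), opposite to the macrophage genes.

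Osteoclast-like genes, which belong to cells of the same lineage, were lower in MEF 61.5 in all 5 that were tested, with a median of −1.86. Of all tested genes, 10.3% were lower in MEF 61.5. Among the osteoclast-like genes were Dcstamp (−2.25) and Ocstamp (−2.37), genes of cell fusion, the protease gene Mmp9 (−1.86) and the acid phosphatase gene Acp5 (−1.76). Under SAM 1 of the 5, Mmp9, fell against B12 (−0.60 ± 0.11, adjusted p = 0.00612), where 4.93% of all tested genes were called lower.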
